A study of Bos taurus with 15 samples.

Results

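Aminoacyl-tRNA synthetases, the enzymes that load each transfer RNA with its amino acid, and the AIMP scaffold proteins that hold several of them together were followed in bovine (Bos taurus) oocytes. The genes were chosen by symbol from a list of 39, of which 36 had a row in a table of 24616 genes. These were 17 enzymes of the cytosol, 15 of mitochondria, 2 that serve both compartments (GARS and KARS) and 2 scaffolds (AIMP1 and AIMP2). The symbols NARS, SARS2 and EEF1E1 matched no row and were skipped. Transcripts were sequenced in 15 libraries that form 5 groups of 3. In the helium 6.6 M and helium 5.6 M groups liquid helium was the coolant, and the molarity is that of the cryoprotective agent. In the nitrogen 6.6 M and nitrogen 5.6 M groups the coolant was liquid nitrogen, and the fifth group is fresh oocytes. Vitrification is cooling so fast that a solution sets as a glass, and liquid helium is colder than liquid nitrogen. All groups, fresh included, had been matured in vitro and stripped of cumulus cells with hyaluronidase, per the labels' protocols, although the series title calls the oocytes immature.

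Each cytosolic synthetase charges the tRNAs used on cytosolic ribosomes, while mitochondria keep their own set, encoded in the nucleus and imported, which charges the tRNAs of the mitochondrial genome. In animals, several cytosolic enzymes and the AIMP proteins form the multi-tRNA synthetase complex, with AIMP2 as its central scaffold. Oocytes stop most transcription before maturation ends, so a mature oocyte translates largely from mRNA that it has stored.

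Library totals fell into 2 ranges. The 6 helium libraries and nitrogen 6.6 M library 3 held 6346848 to 8569618 counts, and the other 5 nitrogen libraries and the 3 fresh libraries held 1601519 to 2822837. Depth therefore cannot be told apart from helium against fresh except through a model term for it. Such a term rests on nitrogen 6.6 M library 3 alone, the only deeper library outside helium, so it separates them poorly. Oocyte markers summed to between 20656.8 and 37149 CPM (counts brought to a common library total) per library. Of 17 cumulus and granulosa markers, FSHR and FOXL2 had no count in any library. The 17 summed to 290 to 544 CPM in helium 6.6 M, 301 to 341 in helium 5.6 M, 299 to 314 in nitrogen 6.6 M, 312 to 332 in nitrogen 5.6 M and 283 to 437 in fresh libraries. Helium 6.6 M library 2 and fresh library 2 held the highest of these sums, but through different genes. In fresh library 2 STAR alone had 283 CPM, while TIMP1 had 0 and TNFAIP6 and VIM 1.82 each. In helium 6.6 M library 2 STAR had 191 CPM, TIMP1 130, TNFAIP6 30.8 and VIM 16.8. The labels do not say whether libraries came from separate animals or cultures, so p-values measure only how these libraries vary, part of which may be technical. All values are shares of a library, so fewer transcripts per oocyte and fewer oocytes in a library cannot be told apart.

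Levels between genes were compared as FPKM, counts scaled by gene length and library total. The cytosolic genes spanned 0.246 to 139.8 FPKM as means over the 15 libraries, and the mitochondrial genes 0.0198 to 233. Of the 17 cytosolic genes, 8 averaged at least 10 FPKM and 5 averaged under 1, with a median of 3.27. Of the 15 mitochondrial genes, 2 averaged at least 10 FPKM and 8 averaged under 1, with a median of 0.594. The highest transcript of all was nevertheless mitochondrial: RARS2 made up 84.2% of the summed mitochondrial FPKM, while DARS, the highest cytosolic gene, made up 34.5% of the cytosolic sum. The 10 members of the multi-tRNA synthetase complex were mostly well expressed, 8 of them at 10 FPKM or more, with a median of 32.8. The 10 cytosolic enzymes outside the complex had a median of 2.16, and 3 of them reached 10 FPKM. The 8441 genes that passed the filter on low counts had a median of 11.8 FPKM.

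**Figure D1:**
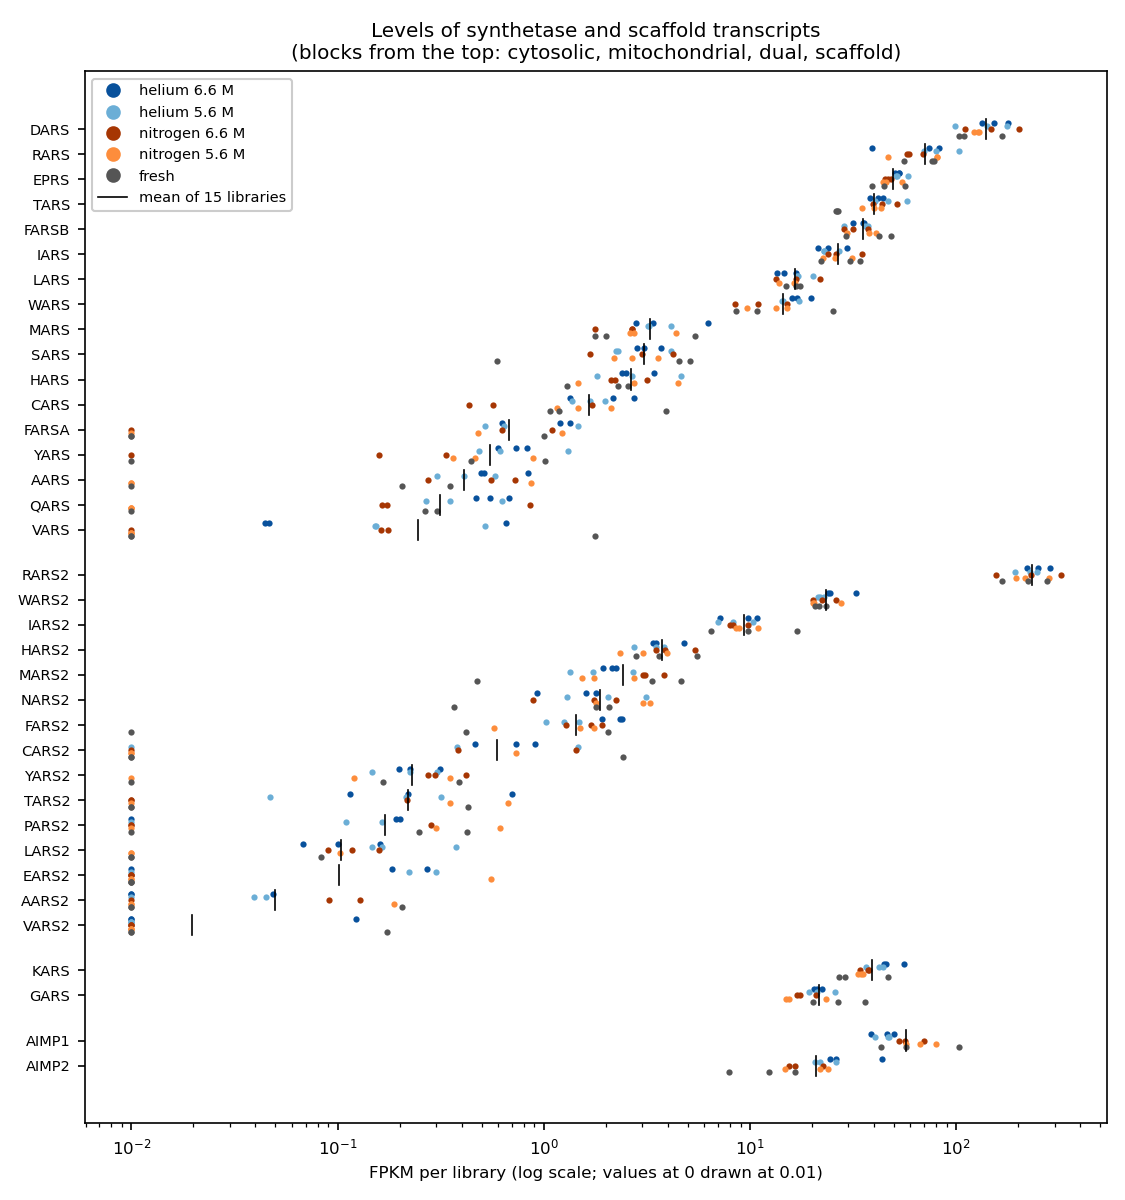
FPKM of the 36 genes in each of 15 libraries on a log scale, with values at 0 drawn at 0.01, points coloured by group and black ticks at the mean. Cytosolic genes run from DARS at 139.8 down to VARS at 0.246, and mitochondrial genes from RARS2 at 233 down to VARS2 at 0.0198.

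Among the cytosolic enzymes of the complex, DARS (ENSBTAG00000009949, chromosome 2: 61722452 to 61787886 on UMD3.1), the aspartate enzyme, was highest. It had 133, 152 and 179 FPKM in helium 6.6 M libraries 1 to 3, and 176, 142 and 98.4 in helium 5.6 M libraries 3 to 5. It had 111, 147 and 201 in nitrogen 6.6 M, 129, 128 and 122 in nitrogen 5.6 M, and 109, 103 and 167 FPKM in fresh libraries. The lowest and the highest of these values both came from vitrified oocytes, and every vitrified group overlapped the fresh one.

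RARS (ENSBTAG00000014626, chromosome 7: 82792843 to 82822084), the arginine enzyme, followed. It had 73.9, 39.0 and 82.7 FPKM in helium 6.6 M, 69.8, 80.1 and 103 in helium 5.6 M, 58.0, 69.2 and 59.4 in nitrogen 6.6 M, 80.7, 81.0 and 46.8 in nitrogen 5.6 M, and 78.5, 76.7 and 55.9 in fresh libraries. The lowest value was that of helium 6.6 M library 2, and no group stood apart. EPRS (ENSBTAG00000006898, chromosome 16: 24171351 to 24236353), which carries the glutamate and the proline enzyme in the same protein, varied least, with a ratio of 1.48 between its highest and lowest library. It had 50.4, 52.9 and 53.0 FPKM in helium 6.6 M, 51.0, 58.1 and 51.4 in helium 5.6 M, 46.9, 48.4 and 45.2 in nitrogen 6.6 M, 54.5, 44.3 and 45.5 in nitrogen 5.6 M, and 44.9, 56.3 and 39.2 in fresh libraries. The fresh values spanned nearly the whole range.

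The isoleucine enzyme IARS averaged 26.6 ± 4.46 FPKM and the leucine enzyme LARS 16.5 ± 2.33 (SD over 15 libraries). MARS, the methionine enzyme, averaged 3.27 ± 1.29, and its annotated span overlaps that of the stress gene DDIT3, at 695 FPKM, by 52 bases. Strand use in counting is not given in the sources used here, so reads from the shared bases cannot be assigned with certainty. QARS (ENSBTAG00000018928, chromosome 22: 51484253 to 51491566), the glutamine enzyme, was the exception in the complex, with 61 counts over all libraries. It had 0.551, 0.681 and 0.467 FPKM in helium 6.6 M, 0.349, 0.629 and 0.270 in helium 5.6 M, 0.861, 0.164 and 0.174 in nitrogen 6.6 M, 0 in all 3 nitrogen 5.6 M libraries, and 0.267, 0 and 0.303 in fresh libraries. A floor of 3 counts corresponds to 0.801 FPKM in the shallowest library, so these zeros do not set nitrogen 5.6 M apart.

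Outside the complex, the highest cytosolic enzymes were TARS (threonine, 40.1 ± 9.005 FPKM), FARSB (35.3 ± 5.73) and WARS (tryptophan, 14.4 ± 4.48). FARSB is the beta subunit of the phenylalanine enzyme, which needs an alpha subunit, FARSA, to work. The transcript of that partner averaged 0.681 ± 0.522 FPKM and had no count in 4 libraries. SARS (serine), HARS (histidine) and CARS (cysteine) averaged 3.06, 2.65 and 1.66 FPKM, and YARS (tyrosine) and AARS (alanine) 0.550 and 0.409. VARS (ENSBTAG00000005631, chromosome 23: 27365215 to 27374077), the valine enzyme, was lowest. It had 0.0464, 0.658 and 0.0442 FPKM in helium 6.6 M, 0.151, 0.521 and 0.153 in helium 5.6 M, 0.163, 0 and 0.176 in nitrogen 6.6 M, 0 in all 3 nitrogen 5.6 M libraries, and 0, 1.78 and 0 in fresh libraries. Of its 49 counts, helium 6.6 M library 2 held 14, helium 5.6 M library 4 held 12 and fresh library 2 held 9.

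Of the mitochondrial enzymes, RARS2 (ENSBTAG00000016967, chromosome 9: 63225447 to 63299357), the mitochondrial arginine enzyme, lay above 93.9% of the genes tested. It had 219.8, 251 and 286 FPKM in helium 6.6 M, 246, 228 and 192 in helium 5.6 M, 155, 232 and 321 in nitrogen 6.6 M, 215, 283 and 195 in nitrogen 5.6 M, and 223, 166 and 275 in fresh libraries. Its lowest and highest values came from the same group, nitrogen 6.6 M. ORC3, a subunit of the origin recognition complex at 142 FPKM, ends 135 bases before RARS2 begins.

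WARS2 (ENSBTAG00000005064, chromosome 3: 24105659 to 24200029), the tryptophan enzyme of mitochondria, came next. It had 24.6, 32.6 and 24.0 FPKM in helium 6.6 M, 23.0, 21.8 and 21.3 in helium 5.6 M, 20.1, 26.2 and 22.4 in nitrogen 6.6 M, 20.4, 27.5 and 20.2 in nitrogen 5.6 M, and 21.6, 23.4 and 20.7 in fresh libraries. The highest, helium 6.6 M library 2, was 1.62 times the lowest. In FPKM all 3 helium 6.6 M libraries lay above the 3 fresh ones, whereas in TMM-scaled CPM they overlapped (31.7, 38.1 and 30.3 in helium 6.6 M, and 29.9, 25.0 and 31.9 in fresh libraries). The other vitrified groups overlapped the fresh one in FPKM. IARS2 (ENSBTAG00000012582, chromosome 16: 24285717 to 24329372), for isoleucine, had 7.17, 10.8 and 9.82 FPKM in helium 6.6 M, 8.25, 7.001 and 10.3 in helium 5.6 M, 8.24, 7.99 and 9.78 in nitrogen 6.6 M, 8.81, 8.55 and 10.9 in nitrogen 5.6 M, and 9.83, 16.99 and 6.49 in fresh libraries. The fresh group held both extremes.

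HARS2 (ENSBTAG00000025212, chromosome 7: 53500352 to 53507322), for histidine, lies 161 bases from HARS, its close relative in sequence. How reads that match both were counted is not given in the sources used here, so the values of the pair are uncertain. HARS2 had 3.51, 4.81 and 3.40 FPKM in helium 6.6 M, 3.83, 3.497 and 2.75 in helium 5.6 M, 5.43, 3.495 and 3.87 in nitrogen 6.6 M, 3.02, 2.36 and 3.94 in nitrogen 5.6 M, and 3.63, 5.55 and 2.79 in fresh libraries. NARS2 (ENSBTAG00000039943, chromosome 29: 17544439 to 17627915), for asparagine, had 0.923, 1.78 and 1.60 FPKM in helium 6.6 M, 3.15, 2.04 and 1.29 in helium 5.6 M, 0.885, 2.24 and 1.75 in nitrogen 6.6 M, 3.02, 1.79 and 3.27 in nitrogen 5.6 M, and 0.366, 1.78 and 2.08 in fresh libraries. In both genes every vitrified group overlapped the fresh one.

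MARS2 (methionine) and FARS2 (phenylalanine) averaged 2.44 ± 1.06 and 1.44 ± 0.696 FPKM. CARS2, YARS2, TARS2, PARS2, LARS2 and EARS2, for cysteine, tyrosine, threonine, proline, leucine and glutamate, averaged 0.102 to 0.594. The lowest were AARS2 (alanine; ENSBTAG00000013722, chromosome 23: 17609853 to 17676803) and VARS2 (valine; ENSBTAG00000010698, chromosome 23: 27949626 to 27961526). AARS2 had 8 counts in all, with 0.0487 FPKM in helium 6.6 M library 2, 0.0393 and 0.0450 in helium 5.6 M libraries 3 and 4, 0.129 and 0.0911 in nitrogen 6.6 M libraries 2 and 3, 0.188 in nitrogen 5.6 M library 3, 0.205 in fresh library 2 and 0 in the other 8 libraries. VARS2 had 3 counts in helium 6.6 M library 1 (0.123 FPKM), 1 in fresh library 2 (0.174 FPKM) and none in the other 13 libraries. For VARS2 a floor of 3 counts is 0.535 FPKM in the shallowest library and 0.1001 in the deepest.

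Detection of the scarce members moved with depth. Of the 14 genes that did not pass the filter on low counts (5 cytosolic and 9 mitochondrial), 11 to 13 had a count in each deeper library and 2 to 10 in each shallower library. These 14 genes entered tests between groups only under alternative settings, such as the fit with no filter, which tested all 36 members.

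Cytosolic and mitochondrial enzymes for the same amino acid were set side by side in 15 pairs. The cytosolic gene was higher in all 15 libraries in 7 pairs. The widest gap was that between EPRS at 49.5 ± 5.16 FPKM and EARS2 at 0.102 ± 0.168. In 4 pairs the mitochondrial gene had the higher mean. RARS averaged 70.3 ± 16.2 FPKM and RARS2 233 ± 45.9, and the mitochondrial gene was higher in 15 of 15 libraries. WARS averaged 14.4 ± 4.48 and WARS2 23.3 ± 3.38, with the mitochondrial gene higher in 14. HARS averaged 2.65 ± 0.955 and HARS2 3.72 ± 0.924, with the mitochondrial gene higher in 12. FARSA averaged 0.681 ± 0.522 and FARS2 1.44 ± 0.696, with the mitochondrial gene higher in 13, whereas FARSB was above FARS2 in all 15. These are levels within libraries, described without a test, since length scaling and the annotation of each gene enter every ratio.

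**Figure D2:**
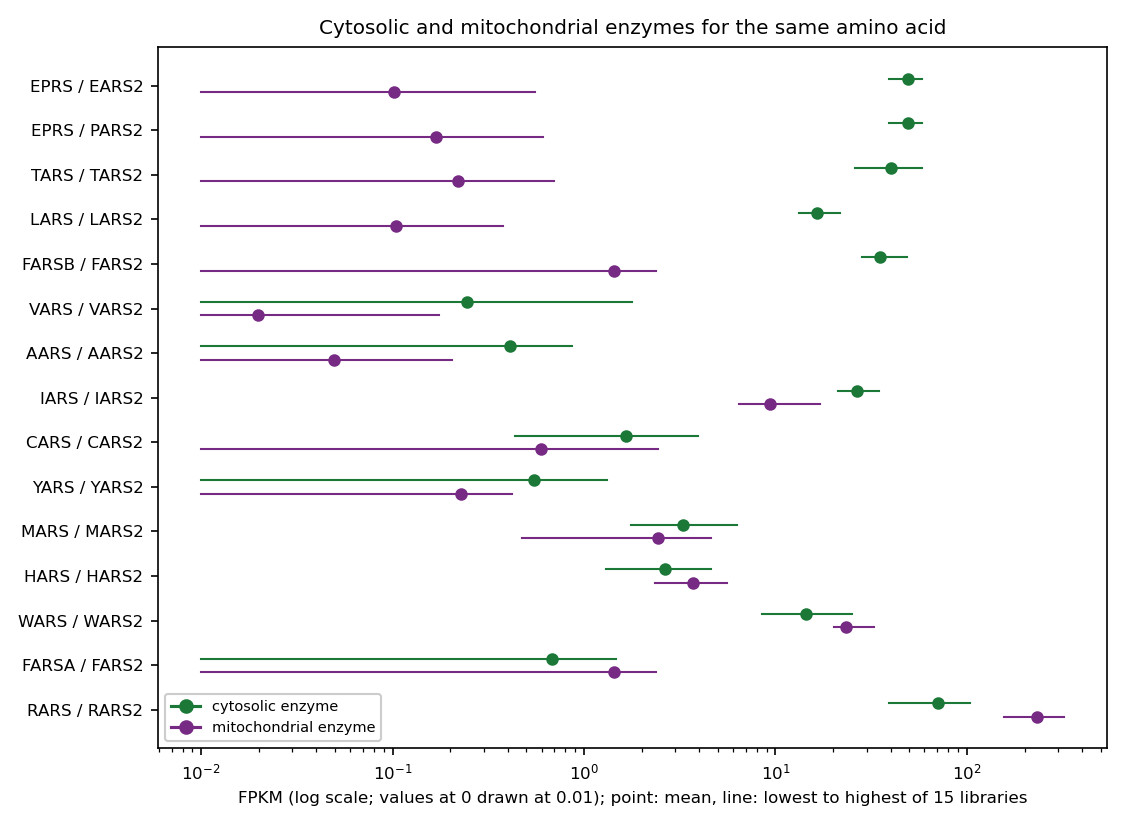
Mean FPKM on a log scale of the cytosolic (green) and mitochondrial (purple) enzyme for the same amino acid, with lines from the lowest to the highest of 15 libraries and values at 0 drawn at 0.01. The pairs are ordered from EPRS and EARS2 (49.5 and 0.102) to RARS and RARS2 (70.3 and 233), where the mitochondrial gene is far higher.

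In 5 pairs the mitochondrial gene had a count in every library, so the balance of the pair was described in each group, with no test. In 4 of them, RARS, WARS, IARS and MARS, each vitrified mean was within 1 SD of the fresh mean. The ratio of RARS to RARS2 averaged 0.260 ± 0.0939 in helium 6.6 M, 0.391 ± 0.132 in helium 5.6 M, 0.286 ± 0.0948 in nitrogen 6.6 M, 0.301 ± 0.0686 in nitrogen 5.6 M and 0.339 ± 0.129 in fresh oocytes (SD, n = 3 each). The ratio of WARS to WARS2 averaged 0.654 ± 0.0419, 0.696 ± 0.0823, 0.517 ± 0.205 and 0.586 ± 0.207 in the vitrified groups in that order, and 0.663 ± 0.361 in fresh oocytes. The ratio of IARS to IARS2 averaged 2.73 ± 0.444, 2.92 ± 0.613, 3.24 ± 0.336 and 2.89 ± 0.750 in the vitrified groups, and 3.23 ± 2.00 in fresh oocytes. That of MARS to MARS2 averaged 2.02 ± 1.05, 1.99 ± 0.709, 0.721 ± 0.159 and 1.62 ± 0.147 in the vitrified groups, and 1.98 ± 1.98 in fresh oocytes. In both pairs the fresh libraries spread most widely. The fresh ratios of MARS to MARS2 were 0.529, 1.17 and 4.23, the last from a library with 3 counts of MARS2. With an SD as large as the mean, lying within 1 SD of fresh says little for that pair.

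In the pair for histidine, not every vitrified mean was within 1 SD of the fresh mean. The ratio of HARS to HARS2 was 0.684, 0.710 and 0.736 in helium 6.6 M, 0.703, 1.32 and 0.661 in helium 5.6 M, 0.582, 0.631 and 0.549 in nitrogen 6.6 M, 1.48, 1.16 and 0.371 in nitrogen 5.6 M, and 0.631, 0.459 and 0.465 in fresh libraries. All 6 helium libraries lay above the 3 fresh ones, the closest at 0.661 against 0.631, while both nitrogen groups overlapped them. The fresh libraries held only 7, 8 and 7 counts of HARS and 14, 22 and 19 of HARS2, so these ratios are uncertain. How often ratios of other genes separate in this way was not counted. In helium 6.6 M against fresh neither HARS (edgeR adjusted p = 0.731) nor HARS2 (0.941) passed. The mean was 0.710 ± 0.0258 in helium 6.6 M, 0.895 ± 0.370 in helium 5.6 M, 0.587 ± 0.0414 in nitrogen 6.6 M, 1.01 ± 0.573 in nitrogen 5.6 M and 0.518 ± 0.0977 in fresh oocytes (SD, n = 3 each). The ratio was not tested, and how reads matching both genes were counted bears on it.

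The summed FPKM of the 17 cytosolic genes over that of the 15 mitochondrial genes was 1.41 ± 0.125 in helium 6.6 M, 1.64 ± 0.0702 in helium 5.6 M, 1.51 ± 0.256 in nitrogen 6.6 M, 1.43 ± 0.215 in nitrogen 5.6 M and 1.46 ± 0.231 in fresh oocytes. By library, the ratio was 1.53, 1.28 and 1.41 in helium 6.6 M, 1.59, 1.62 and 1.72 in helium 5.6 M, 1.78, 1.47 and 1.27 in nitrogen 6.6 M, 1.63, 1.20 and 1.47 in nitrogen 5.6 M, and 1.36, 1.73 and 1.31 in fresh oocytes. Each vitrified group overlapped the fresh one. The ratio rests largely on DARS and RARS2. Without them it was 5.69 ± 1.21 in helium 6.6 M, 7.18 ± 0.633 in helium 5.6 M, 5.81 ± 0.113 in nitrogen 6.6 M, 6.15 ± 1.09 in nitrogen 5.6 M and 6.08 ± 1.06 in fresh oocytes. The ratios were described and not tested.

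**Figure D3:**
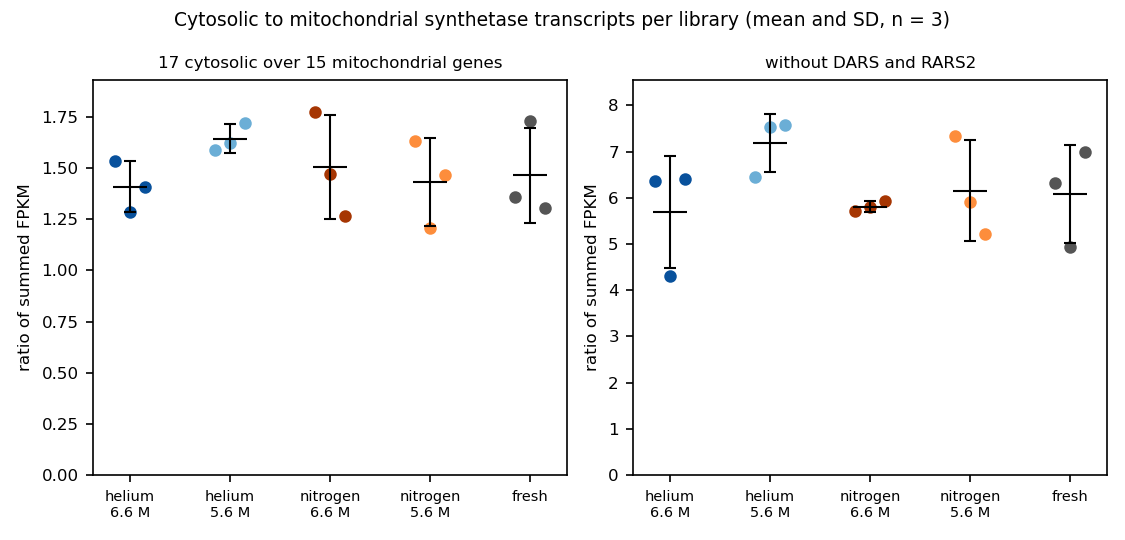
Ratio of summed cytosolic to summed mitochondrial synthetase FPKM in each library, with all 17 and 15 genes (left) and without DARS and RARS2 (right); bars and whiskers are group means and SD, n = 3. With all genes the libraries lie between 1.20 and 1.78, and the fresh ones span 1.31 to 1.73.

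Each vitrified group was then compared with fresh oocytes, which asks what each coolant and concentration went with. The tests were contrasts of 1 edgeR quasi-likelihood fit over all 15 libraries, with p-values adjusted by Benjamini-Hochberg over the 8441 genes tested and a threshold of 0.05. Of the members, 22 entered these tests: 12 cytosolic, 6 mitochondrial, both dual enzymes and both scaffolds. Between groups, levels are given as CPM after TMM scaling, which trims extreme genes before libraries are brought to the same scale. The 4 comparisons share the same 3 fresh libraries.

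In helium 6.6 M against fresh, 1 of the 22 members passed, AIMP2, which was higher. Among all genes tested 0.628% passed, and 0.367% passed as higher. DESeq2 called AIMP2 too, with 3.31% of all genes, whereas limma on log2(FPKM + 1) called no member and 0.545% of all genes. AIMP2 (ENSBTAG00000007367, chromosome 25: 38576192 to 38584314) had 28.6, 46.4 and 29.8 TMM-scaled CPM in helium 6.6 M, 23.8, 29.6 and 25.1 in helium 5.6 M, 26.8, 20.6 and 18.6 in nitrogen 6.6 M, 27.8, 18.8 and 26.6 in nitrogen 5.6 M, and 9.98, 16.02 and 17.2 in fresh libraries. In this measure all 12 vitrified libraries lay above all 3 fresh ones, and helium 6.6 M library 2 was the highest. In FPKM the groups overlapped, as fresh library 2 (16.5) lay above nitrogen 6.6 M library 3 (15.4) and nitrogen 5.6 M library 2 (14.8). AIMP2 averaged 34.9 ± 9.95 CPM in helium 6.6 M and 14.4 ± 3.88 in fresh oocytes (SD, n = 3 each), a log2 fold change of 1.25 with an SE of 0.273 and an edgeR adjusted p of 0.0406. The mean was 26.1 ± 3.01 CPM in helium 5.6 M (log2 fold change 0.83, adjusted p = 0.164), 22.0 ± 4.28 in nitrogen 6.6 M (0.57, adjusted p = 0.638) and 24.4 ± 4.88 in nitrogen 5.6 M (0.74, adjusted p = 0.659). Over all 4 vitrified groups the log2 fold change was 0.85 with an SE of 0.236 and an edgeR adjusted p of 0.108.

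The call of AIMP2 was near the threshold. Its adjusted p was 0.0749 with the replicate number as a block in a fit of the 6 libraries of both groups (log2 fold change 1.26), 0.296 in that fit without the block, 0.0549 after thinning all libraries to the shallowest total, and 0.377 with a term for depth class, which rests on nitrogen 6.6 M library 3 (log2 fold change 1.60). It also missed the threshold without helium 6.6 M library 1, 2 or 3 (adjusted p 0.0668, 0.160 and 0.0882), without fresh library 1 or 3 (0.204 and 0.0608), without helium 5.6 M library 3, 4 or 5 (0.0632, 0.0604 and 0.0627) and without nitrogen 6.6 M library 2 (0.0568). The log2 fold change stayed between 0.99 and 1.41 across the 15 fits that each left out a library. Helium 6.6 M library 2, with the highest AIMP2, also had the highest summed cumulus and granulosa markers, 544 CPM, and the part of those cells in the result was not tested; without that library the log2 fold change was 0.99. Among the shallower libraries alone, the 5 nitrogen libraries averaged 24.1 ± 4.11 CPM of AIMP2 and the 3 fresh libraries 14.4 ± 3.88. These libraries are part of those given above, so their order in CPM adds no separate result. EIF2AK1, the haem-regulated kinase of initiation factor eIF2, begins at the base after AIMP2 ends and is more abundant, at 47.3 FPKM. It averaged 139.8 ± 17.9 CPM in helium 6.6 M and 146 ± 17.5 in fresh oocytes, a log2 fold change of -0.06 (edgeR adjusted p = 0.927).

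AIMP1 (ENSBTAG00000004230, chromosome 6: 20111150 to 20138597), the scaffold that binds RARS in the complex and whose cleaved end acts as a cytokine, had 41.7, 48.6 and 48.7 CPM in helium 6.6 M, 47.7, 42.3 and 52.4 in helium 5.6 M, 61.8, 60.7 and 77.7 in nitrogen 6.6 M, 85.6, 78.6 and 64.2 in nitrogen 5.6 M, and 119.7, 51.1 and 55.4 in fresh libraries. All 6 helium libraries lay below all 6 nitrogen libraries, while the fresh libraries spanned both. AIMP1 averaged 46.9 ± 4.13 CPM in helium and 71.4 ± 10.5 in nitrogen (SD, n = 6 each), a log2 fold change of -0.61 with an SE of 0.179 that missed the threshold (edgeR adjusted p = 0.115). For AIMP2 the means were 30.5 ± 8.15 CPM in helium and 23.2 ± 4.31 in nitrogen (log2 fold change 0.39, adjusted p = 0.294). In helium against nitrogen 0 of the 22 members passed, where 0.663% of all genes did, and 2 members had an unadjusted edgeR p under 0.05, where 16% did. AIMP1 was the 1 member whose helium and nitrogen libraries did not overlap, on the lower side, where 2.63% of all genes lay. DESeq2 called 1 member in helium against nitrogen, AIMP1, with 3.19% of all genes, and limma called 0 members and 0.284%. AIMP1 passed in edgeR without fresh library 1 (adjusted p = 0.0245) or fresh library 2 (0.0482), neither of which is among the libraries compared. The only deeper nitrogen library had 77.7 CPM of AIMP1. That it lay above the 6 helium libraries of like depth follows from the separation already given, and the part of depth was not tested by it.

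**Figure D4:**
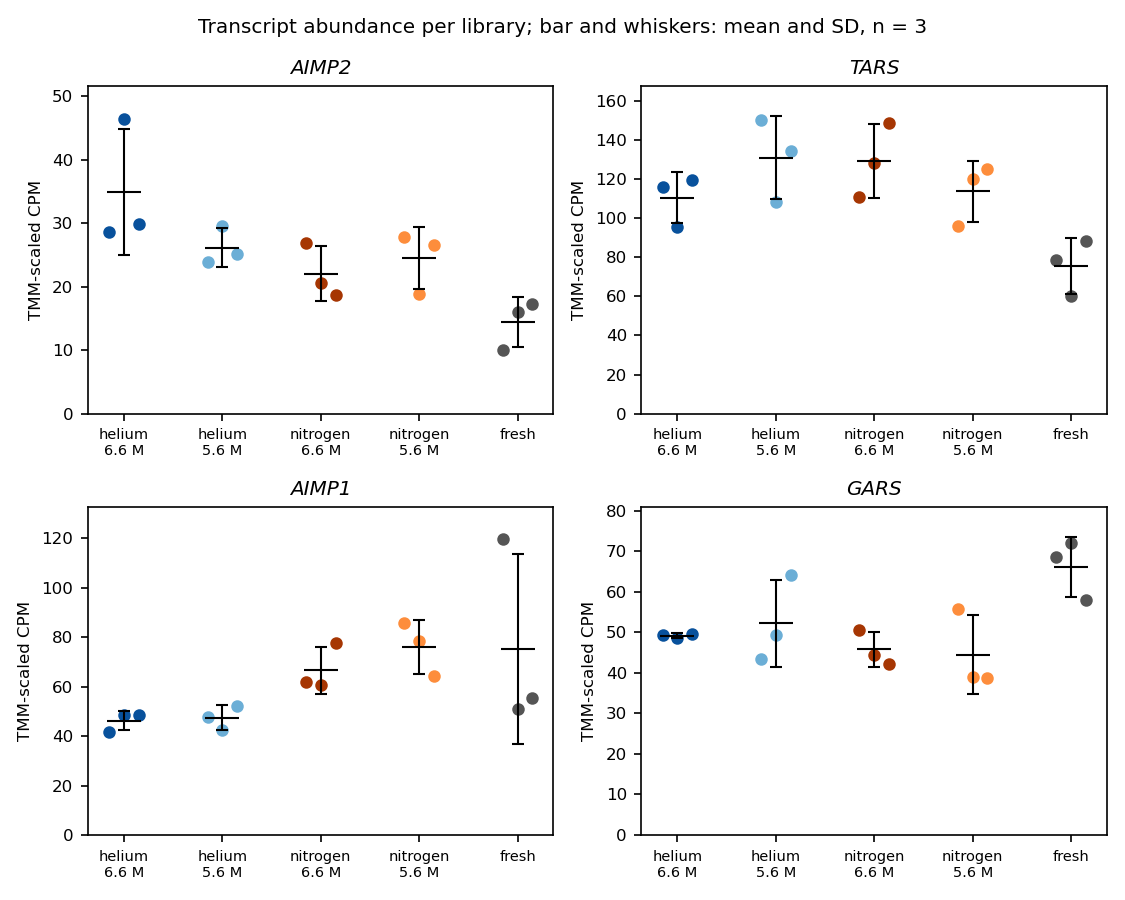
TMM-scaled CPM of AIMP2, TARS, AIMP1 and GARS in each library, with bars and whiskers for the group mean and SD (n = 3). The fresh libraries are lowest for AIMP2 (9.98 to 17.2) and TARS (60.1 to 88.6), and the helium libraries are below the nitrogen libraries for AIMP1 (41.7 to 52.4 against 60.7 to 85.6).

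TARS (ENSBTAG00000014261, chromosome 20: 40349625 to 40373064), the threonine enzyme, had 116, 95.8 and 119.7 CPM in helium 6.6 M, 150.4, 109 and 135 in helium 5.6 M, 111, 129 and 149 in nitrogen 6.6 M, 96.2, 120.0 and 125 in nitrogen 5.6 M, and 78.5, 60.1 and 88.6 in fresh libraries. All 12 vitrified libraries were above the highest fresh one. In TMM-scaled CPM AIMP2 and TARS were the 2 members with this pattern, which 1.32% of all genes showed. In FPKM TARS kept it and AIMP2 did not. TARS averaged 121 ± 17.7 CPM in vitrified oocytes (n = 12) and 75.7 ± 14.4 in fresh ones (n = 3), a log2 fold change of 0.68 with an SE of 0.168 that missed the threshold (edgeR adjusted p = 0.0818). Its log2 fold change was 0.55 in helium 6.6 M (adjusted p = 0.197), 0.79 in helium 5.6 M (0.0816), 0.78 in nitrogen 6.6 M (0.229) and 0.59 in nitrogen 5.6 M (0.592). Over all vitrified groups TARS passed in limma on log2(FPKM + 1) (adjusted p = 0.0312), in DESeq2 (0.0106) and in edgeR with no filter (0.0356). With a depth term in edgeR, which rests on nitrogen 6.6 M library 3, the log2 fold change was 0.49 (adjusted p = 0.544). Among the shallower libraries, the 5 nitrogen libraries averaged 116 ± 13.1 CPM of TARS and the 3 fresh libraries 75.7 ± 14.4.

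The dual enzymes had fold changes of opposite sign in all 4 vitrified groups, GARS below 0 and KARS above. GARS (ENSBTAG00000018972, chromosome 4: 66102956 to 66156434), the glycine enzyme, had 49.2, 48.6 and 49.7 CPM in helium 6.6 M, 43.3, 49.3 and 64.1 in helium 5.6 M, 50.6, 44.5 and 42.1 in nitrogen 6.6 M, 55.7, 39.1 and 38.7 in nitrogen 5.6 M, and 68.5, 72.1 and 57.9 in fresh libraries. Of the 12 vitrified libraries, 11 lay below all fresh ones in CPM, with helium 5.6 M library 5 as the exception. How many of all genes do so was not counted. In FPKM every vitrified group overlapped the fresh one, with 20.5, 22.4 and 21.2 in helium 6.6 M and 26.7, 36.3 and 20.3 in fresh libraries. GARS averaged 47.9 ± 7.17 CPM in vitrified oocytes and 66.2 ± 7.37 in fresh ones, a log2 fold change of -0.47 (SE 0.159, edgeR adjusted p = 0.190). KARS (ENSBTAG00000015677, chromosome 18: 2962722 to 2976537), the lysine enzyme, had 96.4, 109 and 96.2 CPM in helium 6.6 M, 89.0, 88.5 and 81.7 in helium 5.6 M, 74.4, 85.4 and 84.2 in nitrogen 6.6 M, 71.7, 80.5 and 79.8 in nitrogen 5.6 M, and 66.5, 83.1 and 69.7 in fresh libraries. The 3 helium 6.6 M libraries were the highest of all 15 in CPM. In FPKM fresh library 2 (46.5) lay above helium 6.6 M libraries 1 and 3 (44.7 and 45.6). KARS averaged 100.5 ± 7.35 CPM in helium 6.6 M and 73.1 ± 8.81 in fresh oocytes, a log2 fold change of 0.46 (SE 0.167, edgeR adjusted p = 0.191).

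Over the 22 members, log2 fold changes above and below 0 were about as many in each vitrified group. In helium 6.6 M against fresh, 11 of 22 log2 fold changes were above 0, with a median of 0.01 beside -0.02 for all genes tested. An unadjusted p under 0.05 was found for 5 members and for 15.5% of all genes. In TMM-scaled CPM, groups did not overlap for 3 members on the higher side (AIMP2, TARS and KARS) and 2 on the lower (AIMP1 and GARS). Of all genes 8.06% and 8.25% did so. In FPKM the groups overlapped for KARS, AIMP1 and GARS. In helium 5.6 M against fresh, edgeR called 0 of 22 members and 0.474% of all genes. DESeq2 called 1 member (TARS) and 2.89% of all genes, and limma 0 members and 0.462%. The median was -0.02 beside 0.00 for all genes, and 3 members had an unadjusted p under 0.05, as had 14.1% of all genes. AIMP2 and TARS did not overlap with fresh on the higher side, where 9.36% of all genes lay.

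In nitrogen 6.6 M against fresh, edgeR called 0 of 22 members and 0.0474% of all genes, with a median of 0.05 beside -0.03. An unadjusted p under 0.05 was found for 3 members and 8.23% of all genes. DESeq2 called 1 member (TARS) and 0.817% of all genes, and limma 0 members and 0.154%. In nitrogen 5.6 M against fresh, 0 of 22 members were called, where edgeR called 0.0118% of all genes, DESeq2 0.379% and limma 0.0829%. An unadjusted p under 0.05 was found for 3 members and 6.74% of all genes, and the median was -0.01 beside -0.05. In both nitrogen groups AIMP2 and TARS did not overlap with fresh on the higher side, where 5.27% (6.6 M) and 5.24% (5.6 M) of all genes lay. GARS was the 1 member wholly on the lower side, with 4.04% and 4.03% of all genes. These separations are in TMM-scaled CPM, and in FPKM AIMP2 and GARS overlapped fresh in both nitrogen groups. Over all vitrified groups edgeR called 0 of 22 members and 0.509% of all genes, and 3 members had an unadjusted p under 0.05, where 13.6% of all genes did. DESeq2 called 2 members (AIMP2 and TARS) and 2.26% of all genes, and limma 1 member (TARS) and 0.829%.

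**Figure D5:**
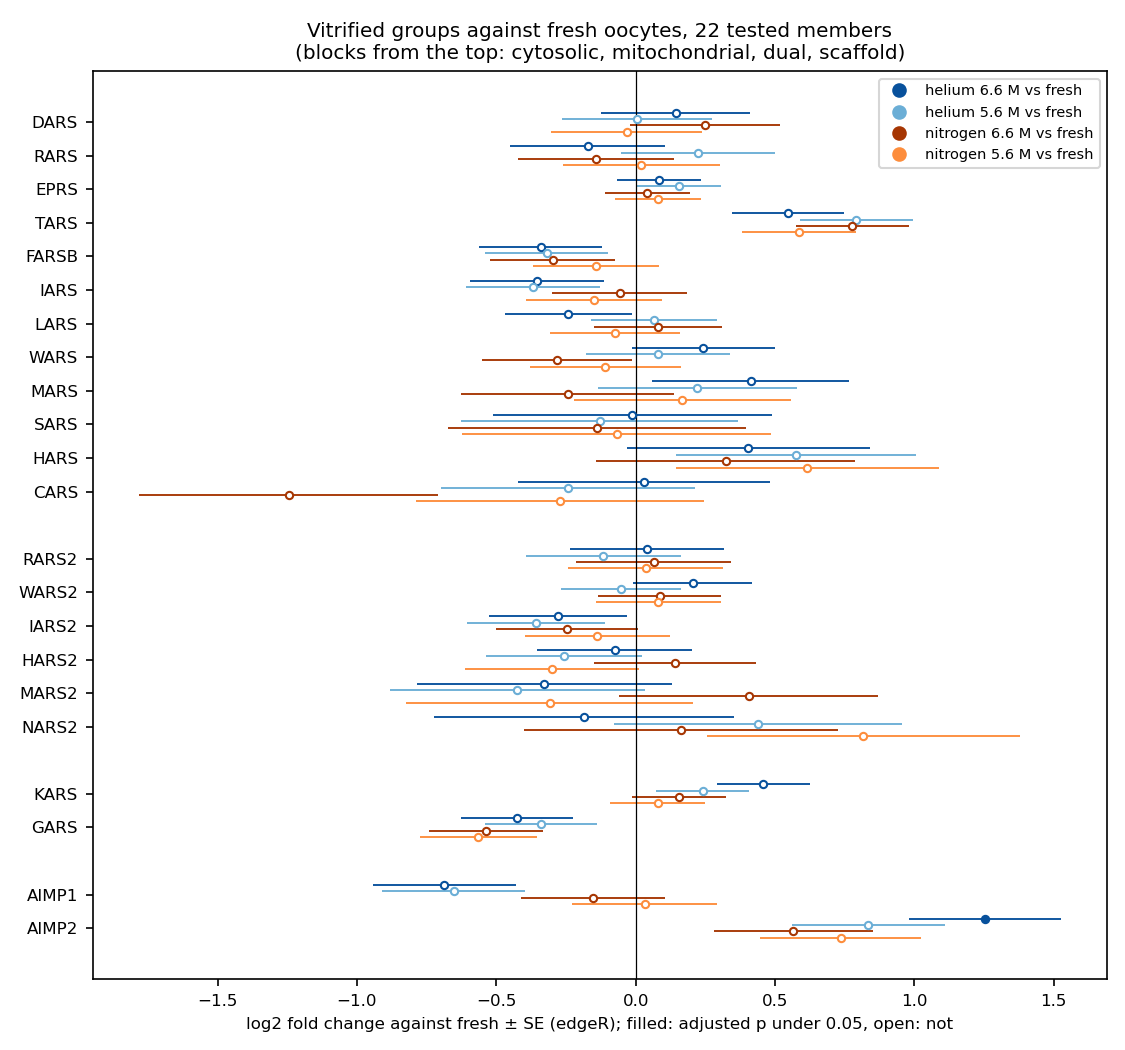
Log2 fold change of each of the 22 tested members against fresh oocytes, in the 4 vitrified groups, with whiskers of 1 SE from edgeR and filled points for an adjusted p under 0.05. AIMP2 in helium 6.6 M (1.25) is the filled point, and TARS is above 0 in all 4 groups (0.55 to 0.79).

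The medians of cytosolic and of mitochondrial enzymes lay within 0.19 of 0 in every vitrified group. The median log2 fold change was 0.06 for the 12 cytosolic and -0.13 for the 6 mitochondrial genes in helium 6.6 M, 0.07 and -0.19 in helium 5.6 M, -0.10 and 0.11 in nitrogen 6.6 M, and -0.05 and -0.05 in nitrogen 5.6 M. Over all vitrified groups the medians were -0.02 for cytosolic and -0.06 for mitochondrial genes, beside -0.03 for all genes tested. In helium against nitrogen all 6 mitochondrial genes had a log2 fold change below 0, from -0.43 to -0.01, with a median of -0.11. The cytosolic median there was 0.03, the same as that of all genes tested to 2 decimals. No mitochondrial member had an unadjusted p under 0.05 in any of the 8 comparisons.

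The concentration of cryoprotective agent went with no called difference. In 6.6 M against 5.6 M, 0 of 22 members and 0% of all genes passed in edgeR, as in DESeq2 and limma. No member had an unadjusted p under 0.05, where 2.24% of all genes did. The smallest p-values among members were those of NARS2, with 2.59 ± 0.955 CPM at 6.6 M and 4.13 ± 1.35 at 5.6 M (n = 6 each; log2 fold change -0.64, SE 0.332, edgeR adjusted p = 1.00), and HARS2, with 9.73 ± 1.89 CPM at 6.6 M and 7.77 ± 1.34 at 5.6 M (log2 fold change 0.31, SE 0.193). The difference between coolants was also compared between concentrations. No member and 0% of all genes passed in that interaction, and no member had an unadjusted p under 0.05, where 2.11% of all genes did. DESeq2 and limma called 0 members and 0% of all genes there too.

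The smallest p-values of the interaction belonged to CARS and AIMP2. CARS (ENSBTAG00000010777, chromosome 29: 49202354 to 49254992), the cysteine enzyme, had 5.69, 6.50 and 3.44 CPM in helium 6.6 M, 4.12, 5.03 and 3.74 in helium 5.6 M, 4.56, 1.21 and 1.53 in nitrogen 6.6 M, 3.80, 3.29 and 5.78 in nitrogen 5.6 M, and 3.33, 8.51 and 3.36 in fresh libraries. Nitrogen 6.6 M libraries 2 and 3 were the lowest, and fresh library 2 the highest. The coolant difference of CARS was 1.25 larger at 6.6 M than at 5.6 M on the log2 scale (SE 0.673), and that of AIMP2 0.59 larger (SE 0.364).

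Genes that work beside the synthetases gave no edgeR call, where few of all genes were called. In 4 lists, charging accessories (9 of 18 symbols tested), tRNA maturation and modification (49 of 78), elongation and termination factors (14 of 23) and the amino acid response (24 of 38), edgeR called 0 genes in each of the 8 comparisons. The share of all genes called was highest in helium against nitrogen, at 0.663%, so 0 calls in lists of this size do not set them apart. DESeq2 and limma calls are not given for these lists. Of the 9 charging accessories, 9 had a log2 fold change above 0 in helium 6.6 M against fresh (median 0.23), 7 in helium 5.6 M (0.16), 7 in nitrogen 6.6 M (0.34) and 8 in nitrogen 5.6 M (0.13). Of all genes 47.7%, 50.1%, 46.7% and 44.6% were above 0 in these comparisons, with medians of -0.02, 0.00, -0.03 and -0.05. An unadjusted p under 0.05 was found for 3, 3, 2 and 2 accessories, where 15.5%, 14.1%, 8.23% and 6.74% of all genes had one. MTFMT, which formylates the initiator methionyl-tRNA of mitochondria, averaged 86.7 ± 11.7 CPM in vitrified and 52.0 ± 12.8 in fresh oocytes (log2 fold change 0.73, SE 0.177, edgeR adjusted p = 0.0715). TRPT1, the counterpart of a yeast tRNA splicing phosphotransferase, averaged 5.85 ± 1.70 CPM in vitrified and 1.42 ± 1.51 in fresh oocytes (log2 fold change 1.94, SE 0.508, adjusted p = 0.0911). NSUN2, a tRNA cytosine methyltransferase, averaged 9.85 ± 0.561 CPM in helium 5.6 M and 22.2 ± 1.08 in fresh oocytes (log2 fold change -1.17, SE 0.266, adjusted p = 0.0547). TRMT10C, a subunit of mitochondrial RNase P, averaged 27.4 ± 3.47 CPM in helium and 43.3 ± 7.01 in nitrogen (log2 fold change -0.66, SE 0.163, adjusted p = 0.0628). EEF1G, a subunit of elongation factor 1, averaged 16.7 ± 4.09 CPM in vitrified and 26.9 ± 9.76 in fresh oocytes (log2 fold change -0.72, adjusted p = 0.158). EEF1B2 of the same list was also lower, with a log2 fold change of -0.89 in helium 5.6 M against fresh (adjusted p = 0.197). MRPL58 was higher in helium 6.6 M against fresh (1.11, adjusted p = 0.0774). EEF2 was higher in a comparison without fresh oocytes, helium against nitrogen (0.87, adjusted p = 0.147). Each gene named from these lists had the smallest p of its list in a comparison. DDIT3, a transcription factor of the integrated stress response that uncharged tRNA can set off through the kinase EIF2AK4, averaged 643 ± 64.5 CPM in vitrified and 500.2 ± 123 in fresh oocytes (log2 fold change 0.36, adjusted p = 0.311). Other genes of that list went either way in single comparisons, and none passed in edgeR. Against fresh, EIF2AK4 had a log2 fold change of -0.43 in helium 5.6 M (adjusted p = 0.224) and DDIT4 -0.75 in helium 6.6 M (0.243). GCN1 had -0.94 in nitrogen 6.6 M against fresh (0.517). SLC3A2 was higher in helium against nitrogen (0.62, adjusted p = 0.184). Over all vitrified groups 10 of the 24 amino acid response genes were above 0 and 14 below (median -0.08).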

How the data were processed

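RNA sequencing of single-cell extracts gave 15 oocyte libraries, with cDNA made by SMARTer kits per the labels' protocols. HISAT2 2.0.4, StringTie 1.3.0 and the build UMD3.1 were used, per the submitters' processing notes. The authors deposited counts per gene as whole numbers without scaling, as the headers and values show. The authors also deposited FPKM values, which are those counts over gene length and library total, to within 0.1% in all 180473 values above 0. The sources used here give no read filter, strand use or handling of reads that match several places. Group labels and replicate numbers came from the sample labels.

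Library totals were 1601519 to 8569618 counts, and members under 3 counts in a library are at the floor. Libraries of the same group differed by a chi-square of 5.52 to 30.0 per degree of freedom, more than sampling noise. Genes passing edgeR's filterByExpr (8441) were scaled by TMM and fitted with edgeR 4.0.16 in R 4.3.3 (robust quasi-likelihood, 5 groups, no block), after the script was tested on simulated data. Alternatives were relative log expression scaling, no filter, at least 5 CPM in 3 libraries, DESeq2 1.42.0, limma 3.58.1 on log2(FPKM + 1), thinning to 1601519 counts, a term for totals above 5000000, fits of 2 groups with and without a replicate block, and leaving out each library. Whether replicate numbers pair helium 6.6 M with fresh was not settled, so the block served only as an alternative. Deviations of same-numbered libraries of these groups correlated at 0.147, 0.306 and 0.227, and libraries of different numbers were not correlated beside them.

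The members, lists and tests were chosen with earlier results of these data known. Members past the threshold, with the 2 smallest p-values of a comparison, or highest (4) or lowest (2) in level within their class are given by library. No sequences are shown.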

Additional observations from a re-analysis of the deposited data

How the results depend on the processing

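The log2 fold changes followed, of AIMP2, TARS, AIMP1, GARS and KARS, reversed direction under no alternative run. These members were picked for small p-values, and the other members were not followed in this way. Counts of members called and the ratios have no direction to reverse. In helium 6.6 M against fresh the count of members called was 0 instead of 1 with limma (AIMP2 adjusted p = 0.0530), after thinning, with the depth term, in the fit of the 2 groups alone and with the replicate block, and ranged from 0 to 3 over the 15 fits without 1 library. The 3 came without fresh library 2 (AIMP1, AIMP2 and FARS2, with 598 of all genes called). The cause was not tested. With no filter, where 36 members were tested, the count was 1 instead of 0 in helium 5.6 M against fresh, in all vitrified against fresh and in helium against nitrogen, with 160, 142 and 344 of 16294 genes called. With DESeq2 it was 1 in helium 5.6 M, 1 in nitrogen 6.6 M, 2 over all vitrified groups and 1 in helium against nitrogen, with 244, 69, 191 and 269 of 8441 genes called. With limma it was 1 over all vitrified groups, with 70 genes called. In helium against nitrogen it ranged from 0 to 1 without 1 library, and in the other comparisons it stayed at 0.

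The replicate block left 0 members called in helium 6.6 M, nitrogen 6.6 M and nitrogen 5.6 M against fresh, with 17, 0 and 1 of all genes. The fit of the same 6 libraries without the block had already lost the AIMP2 call (adjusted p = 0.296, and 0.0749 with the block), so the block itself changed no member's call. Same-numbered nitrogen and fresh libraries correlated between -0.320 and 0.431. No pairing by number is settled for these groups or for helium 6.6 M, whose correlations lay inside that range. Helium 5.6 M shares only the number 3 with fresh, so there is no blocked value there.

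Leaving out DARS and RARS2 gave cytosolic to mitochondrial ratios of 5.69 in helium 6.6 M, 7.18 in helium 5.6 M, 5.81 in nitrogen 6.6 M, 6.15 in nitrogen 5.6 M and 6.08 in fresh oocytes. The ratio of medians was 6.18, 9.46, 6.31 and 6.25 in the vitrified groups in that order, with no value in fresh oocytes, where a mitochondrial median was 0. With GARS and KARS as cytosolic it was 1.64 in helium 6.6 M, 1.88 in helium 5.6 M and 1.71 in fresh oocytes. With 4 further synthetase genes, an alternative chosen after seeing the data, it was 1.71 in helium 5.6 M. Without 1 library it ranged from 1.35 to 1.47 in helium 6.6 M, 1.60 to 1.67 in helium 5.6 M, 1.37 to 1.62 in nitrogen 6.6 M, 1.34 to 1.55 in nitrogen 5.6 M and 1.33 to 1.54 in fresh oocytes.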
